A study of Mus musculus with 8 samples.

Results

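Transforming growth factor beta (TGF-beta) is a cytokine that restrains inflammation and guides the differentiation of tissue macrophages. It is secreted in a latent form, is released by integrins, proteases or thrombospondin, and binds a type II receptor that recruits and activates a type I receptor. The receptor complex phosphorylates SMAD2 and SMAD3, which join SMAD4 and enter the nucleus. SMAD7 and SKIL, a protein of the SKI family, act as brakes that the pathway itself induces. In the colon, TGF-beta signalling is known for shaping monocytes that enter the tissue into CX3CR1hi macrophages.

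The genes described here are 10 members of this pathway, chosen by symbol: the ligand gene Tgfb1, the receptor genes Tgfbr1 and Tgfbr2, the SMAD genes Smad2, Smad3, Smad4 and Smad7, the co-repressor gene Skil, and Thbs1 and Itgb8, whose products activate the latent ligand. Each of the 10 had a single probe set that carried only its symbol, so 10 of the 19938 genes named from such probe sets are followed. The tests cover 9 of them, because Itgb8 was dim on every array.

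The cells were mononuclear phagocytes sorted by flow cytometry from C57BL/6 mice of genotype Cx3cr1gfp/+, in which 1 copy of the fractalkine receptor gene is replaced by a fluorescent reporter, so all groups are heterozygous for Cx3cr1. Each of 8 groups had 1 Affymetrix array. From the steady-state colon came resident macrophages with high CX3CR1 (CX3CR1hi), a CX3CR1hi population that monocytes had reconstituted, and CX3CR1hi F4/80hi cells. From mice given Dextran Sodium Sulphate (DSS), a compound that damages the colonic epithelium, at day 4 of colitis came colonic CX3CR1hi F4/80hi cells and cells with intermediate CX3CR1 (CX3CR1int), split into Ly6Clo and Ly6Chi. Ly6Chi monocytes of the spleen were taken in both conditions. The labels give neither the age of the mice nor the number pooled for an array. The resident, reconstituted and steady-state splenic samples are labelled female and the other 5 male.

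Levels below are log2 signals, so that a difference of 1 is 2-fold. Since no group had a second array, tests were made between 3 sorted populations: CX3CR1hi (4 arrays), CX3CR1int (2 arrays) and splenic Ly6Chi (2 arrays). Arrays of a population differ in condition, origin, Ly6C or sex, and the p-values measure only the spread between these arrays. That spread is pooled over all 3 populations, so a standard error (SE) can reflect a population outside its contrast. In sorted cells, more cells of a type and more RNA per cell cannot be told apart.

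The arrays carried the markers of their labels in most respects. Of 10 macrophage markers 7 were higher in CX3CR1hi than in splenic arrays and 0 lower, and of 7 monocyte markers 6 were lower and 0 higher. Over all genes tested, 22.2% were higher and 29.0% lower in that contrast. All 16 epithelial markers were higher in CX3CR1hi than in splenic arrays, and their log2 summed level lay between 15.29 and 15.93 in CX3CR1hi, 14.15 and 14.38 in CX3CR1int and 9.10 and 10.15 in splenic arrays; none of the 16 was below the array median everywhere. The CX3CR1int Ly6Clo array stood out for dendritic cell genes, with Flt3 at 11.16 and Ccr7 at 11.66, against 9.03 and 9.21 in the Ly6Chi array. The steady-state splenic array, labelled female, carried the Y-linked Eif2s3y (10.28) as well as Xist (10.04), so the calls against splenic cells are also given without it; the marker counts were not recomputed. Between CX3CR1int and CX3CR1hi arrays, 9 of 10 macrophage markers were lower and 0 higher, with a median of -2.33, and 4 of 7 monocyte markers were higher and 0 lower. Over all genes tested, 13.3% were higher and 16.6% lower there. Markers of other colonic cells were also higher in CX3CR1hi than in splenic arrays, namely 3 of 4 tested for plasma cells, 3 of 4 for endothelium and 2 of 9 for stroma. The stromal count was near the 22.2% of all genes that were higher. Several markers were below the array median on both splenic arrays, among them Cd163, Krt20, Cdh1, Vil1, Cdh5, Emcn, Dcn and Dpt. They entered the tests only through colonic arrays, so calls of them as higher there are no support. The log2 summed stromal level was 10.58 to 12.20 in CX3CR1hi, 10.99 and 11.87 in CX3CR1int and 8.74 and 8.75 in splenic arrays. What part RNA of other cells, or the loss of macrophage markers in CX3CR1int arrays, has in the differences below was not tested.

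Both receptor genes were at least 2-fold higher in CX3CR1hi macrophages than in each other population, and their start regions are therefore shown. These are the 250 bases upstream of the annotated start, 5′ to 3′, from RefSeq on GRCm38.p6. They were searched on both strands for the SMAD site CAGAC, the SMAD palindrome GTCTAGAC, the AP-1 site TGANTCA, the PU.1 site GAGGAAGT, the GC box GGGCGG and the ETS site CCGGAAGT, and matches are in capitals.
Tgfbr1, chr4:47352972-47353221, plus strand: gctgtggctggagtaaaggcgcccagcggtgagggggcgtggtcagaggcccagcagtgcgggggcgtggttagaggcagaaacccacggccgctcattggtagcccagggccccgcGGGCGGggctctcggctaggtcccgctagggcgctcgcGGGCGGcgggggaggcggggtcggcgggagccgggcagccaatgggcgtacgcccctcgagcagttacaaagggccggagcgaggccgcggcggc
Tgfbr2, chr9:116175364-116175613, minus strand: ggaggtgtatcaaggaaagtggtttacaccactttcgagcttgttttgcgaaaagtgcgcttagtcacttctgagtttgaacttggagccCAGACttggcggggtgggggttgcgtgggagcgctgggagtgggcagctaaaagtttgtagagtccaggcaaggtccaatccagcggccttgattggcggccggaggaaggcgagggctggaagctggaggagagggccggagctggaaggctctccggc
The Tgfbr1 window held 2 GC boxes, which occur in 32.7% of all 32851 windows of this length, and none of the other motifs. The Tgfbr2 window held 1 CAGAC, found in 42.2% of the windows, and no other match. The GC box and the SMAD site are thus common letters in such windows, and these 2 windows shared none of the 6 motifs. A second annotated start of Tgfbr1, not shown, held 1 CAGAC in its window.

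Tgfbr1 encodes the type I receptor, the kinase that phosphorylates SMAD2 and SMAD3. Its level was 11.71 in resident, 11.39 in reconstituted, 11.84 in steady-state F4/80hi and 11.90 in colitis F4/80hi macrophages, 10.78 and 10.55 in splenic monocytes at steady state and in colitis, and 9.52 and 9.26 in the CX3CR1int Ly6Chi and Ly6Clo cells. The 3 populations did not overlap: every CX3CR1hi array lay above both splenic arrays, and both splenic arrays lay above both CX3CR1int arrays. CX3CR1hi exceeded splenic cells by 1.05 ± 0.17 (SE; limma, adjusted p = 0.00187), a 2.06-fold difference. That difference was 1.16 (adjusted p = 0.0139) without the steady-state splenic array, and 0.87 (adjusted p = 0.0505), no longer called, without both colitis arrays. CX3CR1int cells lay below CX3CR1hi cells by a log2 difference of -2.32 ± 0.17 (limma, adjusted p = 0.000228), 4.99-fold, and below splenic cells by -1.27 ± 0.20 (limma, adjusted p = 0.00478), 2.42-fold. Thus the CX3CR1int cells carried less Tgfbr1 than the monocytes of the spleen. Without the steady-state splenic array that last difference was -1.16 (limma, adjusted p = 0.053) and no longer past the threshold of 0.05. The difference between CX3CR1int and CX3CR1hi cells stayed between -2.45 and -2.18 whichever array was left out, and past the threshold each time.

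Tgfbr2 encodes the type II receptor, which binds the ligand first. It stood at 10.46, 10.37, 10.41 and 10.69 in resident, reconstituted, steady-state F4/80hi and colitis F4/80hi macrophages, and at 9.18 and 9.37 in splenic monocytes at steady state and in colitis. The CX3CR1int Ly6Chi and Ly6Clo arrays, at 9.32 and 9.18, lay within the range of the splenic arrays. CX3CR1hi arrays were above splenic arrays by 1.21 ± 0.13 (limma, adjusted p = 0.000295), 2.31-fold. CX3CR1int arrays were below CX3CR1hi arrays by -1.23 ± 0.13 (limma, adjusted p = 0.000897), 2.35-fold; as given above, 9 of 10 macrophage markers were lower in the same contrast. Between CX3CR1int and splenic arrays the difference was -0.02 with a 95% confidence interval of -0.38 to 0.34. Both calls held with each array left out in turn (CX3CR1hi minus splenic 1.11, adjusted p = 0.00692, without the steady-state splenic array), the differences ranging from 1.11 to 1.3 and from -1.3 to -1.16. Tgfbr2 therefore separated CX3CR1hi macrophages from the other arrays, whereas Tgfbr1 separated all 3 populations.

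**Figure D1:**
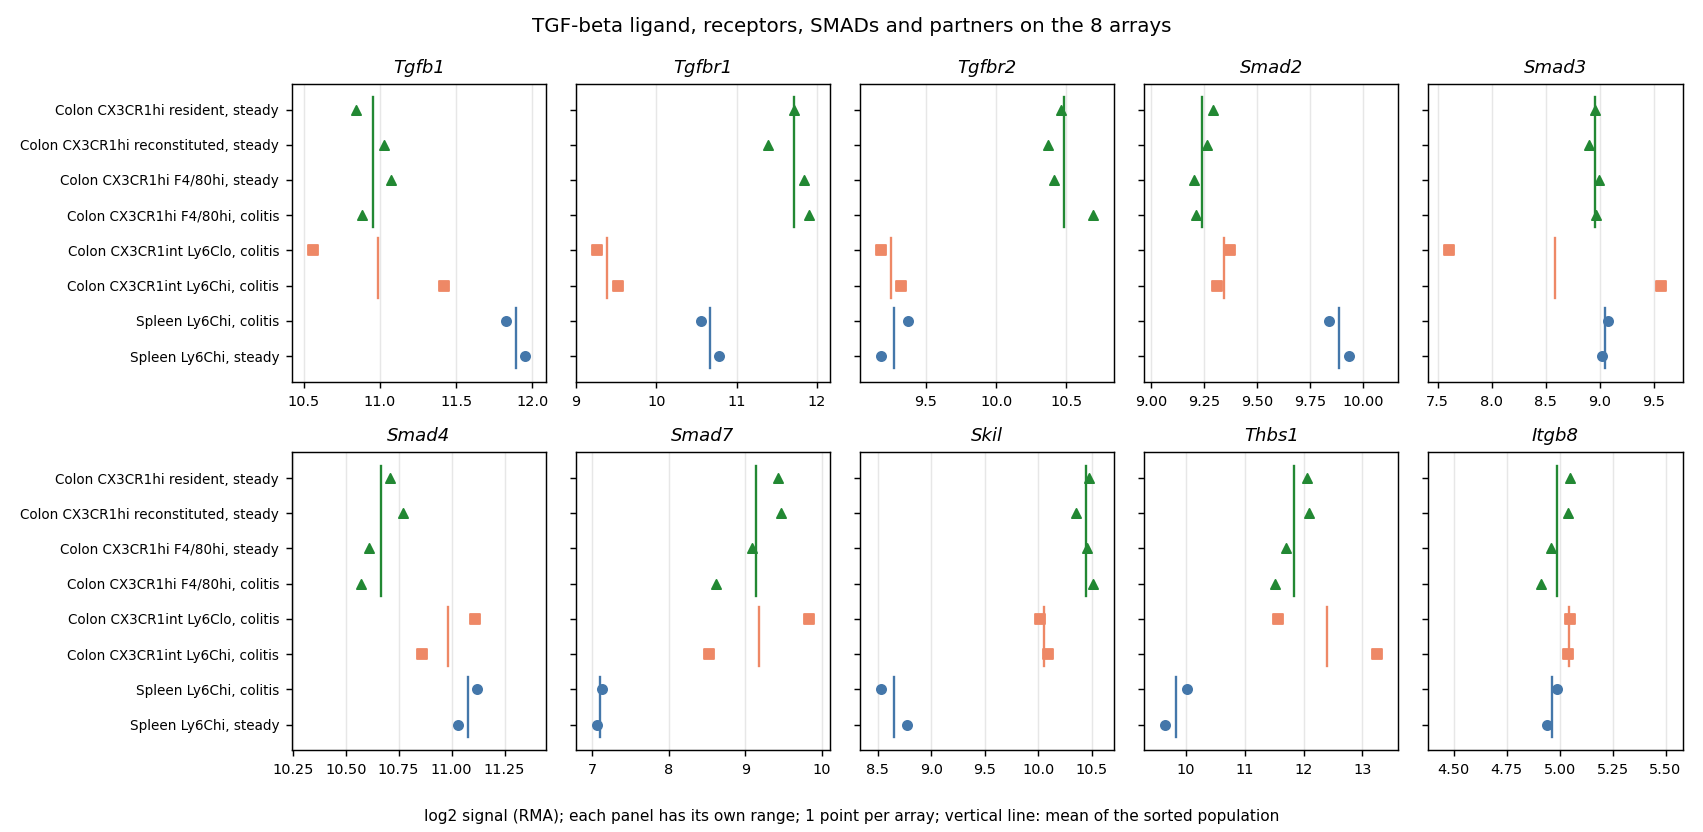
Log2 signal (horizontal axis, a separate range in each panel) of the 10 pathway genes on each of the 8 arrays, with 1 point per array (triangles CX3CR1hi, squares CX3CR1int, circles splenic) and a line at each population's mean. Tgfbr1 and Tgfbr2 are highest in the 4 CX3CR1hi arrays, Smad7, Skil and Thbs1 are lowest in both splenic arrays, and the CX3CR1int squares lie far apart for Smad3, Smad7 and Thbs1.

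Tgfb1, the ligand gene, ran the other way. Its level was 11.95 and 11.83 in splenic monocytes at steady state and in colitis, and 10.84, 11.03, 11.07 and 10.88 in resident, reconstituted, steady-state F4/80hi and colitis F4/80hi macrophages. The CX3CR1int cells differed among themselves, at 11.42 in the Ly6Chi and 10.56 in the Ly6Clo array, the lowest of all 8. CX3CR1hi arrays were lower than splenic arrays by -0.94 ± 0.22 (limma, adjusted p = 0.00949), 1.91-fold. The call was lost without the steady-state splenic array (-0.88, adjusted p = 0.076) and without the colitis splenic array (-0.99, adjusted p = 0.0502). CX3CR1int arrays were lower than splenic arrays by -0.90 ± 0.26 (limma, adjusted p = 0.0391). That call held in 1 of 8 fits with an array left out, the one without the Ly6Chi array, and the difference was -0.47 without the Ly6Clo array. Between CX3CR1int and CX3CR1hi arrays the difference was 0.03 ± 0.22 (limma, adjusted p = 0.927), with an interval of -0.48 to 0.55.

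Thbs1 encodes thrombospondin 1, a secreted matrix protein that can activate latent TGF-beta. It was at 12.05, 12.09, 11.70 and 11.51 in resident, reconstituted, steady-state F4/80hi and colitis F4/80hi macrophages. The CX3CR1int Ly6Chi array had the highest level, 13.25, and the Ly6Clo array stood at 11.56. Splenic monocytes were at 9.65 at steady state and 10.02 in colitis, below every colonic array. CX3CR1hi arrays were above splenic arrays by 2.00 ± 0.42 (limma, adjusted p = 0.00547), 4.01-fold, and CX3CR1int arrays by 2.57 ± 0.49 (limma, adjusted p = 0.00936), 5.95-fold. Without the steady-state splenic array the differences were 1.82 and 2.39 and missed the threshold (limma, adjusted p = 0.0538 and 0.0809). CX3CR1int and CX3CR1hi arrays differed by 0.57 ± 0.42 (limma, adjusted p = 0.341), and the value depended on the array kept: it was 1.41 without the Ly6Clo array and -0.27 without the Ly6Chi array, each resting on 1 CX3CR1int array. Of 5 platelet markers measured, Itga2b, Gp9 and Treml1 were below the array median on all 8 arrays, and Pf4 and Ppbp were higher in CX3CR1hi than in splenic arrays. Pf4 was at 11.56 to 11.72 in CX3CR1hi, 7.01 and 7.48 in CX3CR1int Ly6Chi and Ly6Clo and 5.15 and 5.88 in splenic arrays, and Ppbp was at 7.82 to 9.16, 7.23 and 5.03, and 5.73 and 5.76 in the same order. Ppbp was below the array median on both splenic arrays, so its call as higher than there is no support. The part of platelet RNA in the Thbs1 level was not tested.

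Itgb8 encodes the beta 8 integrin subunit, which with the alpha v subunit releases active TGF-beta from its latent complex. Its level was 5.05, 5.04, 4.96 and 4.91 in resident, reconstituted, steady-state F4/80hi and colitis F4/80hi macrophages. It was 5.04 and 5.05 in CX3CR1int Ly6Chi and Ly6Clo cells and 4.94 and 4.99 in splenic monocytes. All 8 values lay below the median of their array, within a range of 0.14, so Itgb8 did not enter the tests and no difference was detectable at this brightness.

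Smad2 and Smad4 had the narrowest ranges of the 9 tested members over the 8 arrays, 0.74 and 0.55. Smad2 was at 9.93 and 9.84 in splenic monocytes at steady state and in colitis, and between 9.20 and 9.37 in the 6 colonic arrays, so that splenic and colonic arrays did not overlap. CX3CR1hi arrays were lower than splenic arrays by -0.65 ± 0.10 (limma, adjusted p = 0.00145), 1.56-fold (-0.60, adjusted p = 0.0263, without the steady-state splenic array), and CX3CR1int arrays by -0.55 ± 0.12 (limma, adjusted p = 0.0147), 1.46-fold. The second call was lost without either splenic array (-0.50 without the steady-state array and -0.59 without the colitis array; adjusted p = 0.132 and 0.0755). Smad4, the shared partner of the signalling SMADs, had a range of 0.55 over all arrays, from 10.57 in colitis F4/80hi macrophages to 11.12 in colitis splenic monocytes. Its level was 10.71, 10.77 and 10.61 in resident, reconstituted and steady-state F4/80hi macrophages, 10.86 and 11.11 in CX3CR1int Ly6Chi and Ly6Clo cells and 11.03 in steady-state splenic monocytes. The difference of CX3CR1hi from splenic arrays was -0.41 ± 0.12 (limma, adjusted p = 0.0248). This call did not hold in 4 of 8 fits with 1 array left out, namely without the steady-state splenic (-0.45), colitis splenic (-0.37), steady-state F4/80hi (-0.39) or colitis F4/80hi array (-0.38), nor after repeated quantile normalization (-0.31, adjusted p = 0.0823). Between CX3CR1int and CX3CR1hi arrays Smad4 differed by 0.32 ± 0.12 (limma, adjusted p = 0.0828), and by 0.45 (adjusted p = 0.0422) without the Ly6Chi array. Smad2 differed there by 0.10 ± 0.10 (adjusted p = 0.497).

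Smad3 was nearly constant across the macrophages and the monocytes but not across the CX3CR1int cells. It stood at 8.96, 8.90, 8.99 and 8.97 in resident, reconstituted, steady-state F4/80hi and colitis F4/80hi macrophages and at 9.02 and 9.08 in splenic monocytes at steady state and in colitis. In CX3CR1int cells it was 9.57 in the Ly6Chi and 7.61 in the Ly6Clo array, the highest and the lowest of all 8. None of the 3 population contrasts was past the threshold: CX3CR1hi minus splenic was -0.10 ± 0.44, CX3CR1int minus CX3CR1hi -0.36 ± 0.44 and CX3CR1int minus splenic -0.46 ± 0.51 (limma, adjusted p = 0.864, 0.571 and 0.534). The standard deviation was 0.04 in CX3CR1hi, 1.39 in CX3CR1int and 0.04 in splenic arrays. The SE of CX3CR1hi minus splenic thus comes mainly from the CX3CR1int arrays, which are outside that contrast. The sign of the CX3CR1int differences depended on which of the arrays was kept. Against CX3CR1hi arrays the difference was 0.62 without the Ly6Clo array (limma, adjusted p = 0.0117) and -1.35 without the Ly6Chi array (adjusted p = 0.000479). Against splenic arrays it was 0.52 (adjusted p = 0.0345) and -1.45 (adjusted p = 0.00041). In these fits the lone CX3CR1int array is assumed to vary like the arrays of the other populations.

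Smad7 and Skil encode feedback inhibitors of the pathway, the first acting on the receptor and the second, also called SnoN, on SMAD complexes in the nucleus. Smad7 was at 9.43, 9.46, 9.08 and 8.61 in resident, reconstituted, steady-state F4/80hi and colitis F4/80hi macrophages, at 8.52 and 9.83 in CX3CR1int Ly6Chi and Ly6Clo cells, and at 7.06 and 7.13 in splenic monocytes at steady state and in colitis. Every colonic array was above both splenic arrays. CX3CR1hi arrays exceeded splenic arrays by 2.05 ± 0.37 (limma, adjusted p = 0.00282), 4.13-fold, and CX3CR1int arrays exceeded them by 2.08 ± 0.43 (limma, adjusted p = 0.013), 4.23-fold. The first call held with each array left out (2.01, adjusted p = 0.0282, without the steady-state splenic array), and the second was lost without the steady-state splenic array (adjusted p = 0.0899) and without the colitis splenic array (adjusted p = 0.0693). CX3CR1int and CX3CR1hi arrays differed by 0.03 ± 0.37 (limma, adjusted p = 0.957).

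Skil had the smallest adjusted p of the members between CX3CR1hi and splenic arrays. It was at 10.47, 10.35, 10.45 and 10.51 in resident, reconstituted, steady-state F4/80hi and colitis F4/80hi macrophages and at 10.09 and 10.01 in CX3CR1int Ly6Chi and Ly6Clo cells. Splenic monocytes were at 8.77 at steady state and 8.53 in colitis. CX3CR1hi arrays were above splenic arrays by 1.79 ± 0.12 (limma, adjusted p = 2.64e-05), 3.46-fold, and CX3CR1int arrays by 1.40 ± 0.13 (limma, adjusted p = 0.000728), 2.64-fold; both calls held with each array left out in turn (1.91, adjusted p = 0.000558, and 1.52, adjusted p = 0.00719, without the steady-state splenic array). CX3CR1int arrays were below CX3CR1hi arrays by -0.39 ± 0.12 (limma, adjusted p = 0.0391), a call that 0 of 8 fits with an array left out kept, their differences ranging from -0.43 to -0.35.

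Colonic cells are isolated from digested tissue. Levels of 10 immediate early genes, a class switched on quickly by stimuli including cell handling, are therefore given beside those of Smad7, Skil and Thbs1. All 10 were higher in CX3CR1hi than in splenic arrays, as were 22.2% of all genes. In CX3CR1int arrays 5 of 10 were higher than in splenic arrays, against 10.2% of all genes. These counts were not recomputed without the steady-state splenic array. Their median level was 11.96 to 12.30 in CX3CR1hi, 11.48 and 11.62 in CX3CR1int, 9.19 in steady-state splenic and 11.11 in colitis splenic arrays. In this median the colitis splenic array was nearer to the CX3CR1int arrays than to the steady-state splenic array. Smad7, Skil and Thbs1 were lowest in both splenic arrays. In the splenic arrays alone, the median of the gene-wise differences of the 10 genes, colitis minus steady state, was 1.55. Skil differed there by -0.24, Smad7 by 0.07 and Thbs1 by 0.37. These differences all rest on 1 array per condition, and the steady-state splenic array is the one that carried both Eif2s3y and Xist. The part of handling in the colonic levels was not tested.

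**Figure D2:**
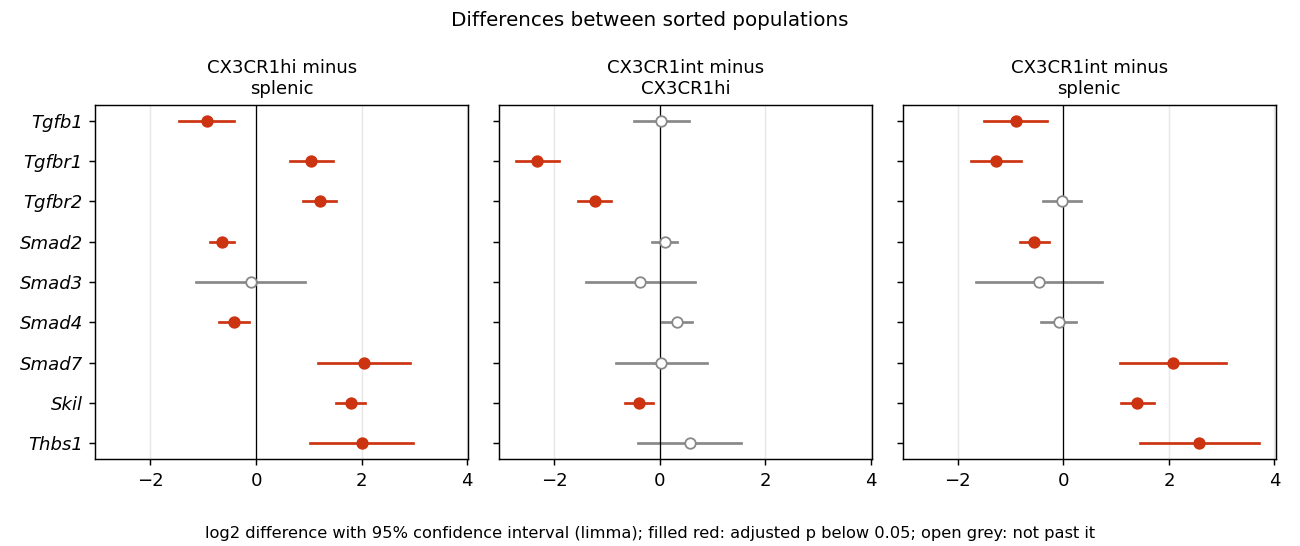
Log2 difference between sorted populations (horizontal axis) for the 9 tested pathway genes, as points with 95% confidence intervals from limma; filled red points have an adjusted p below 0.05 and open grey points do not. Smad7, Skil and Thbs1 lie to the right of 0 in both contrasts with the splenic arrays, and Tgfbr1 and Tgfbr2 lie left of 0 in CX3CR1int minus CX3CR1hi.

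Counted together, 8 of the 9 tested members differed between CX3CR1hi and splenic arrays, 5 higher and 3 lower. Over all 10673 genes tested 51.2% differed, 22.2% higher and 29.0% lower, so most of the transcriptome separated these populations too. The median difference was 1.05 over the 9 members and -0.12 over all genes. Between CX3CR1int and CX3CR1hi arrays 3 of 9 members were lower and 0 higher, against 29.9% of all genes called in either direction, 16.6% lower and 13.3% higher, a share near that of the members. Between CX3CR1int and splenic arrays 3 of 9 were higher and 3 lower, against 24.4% of all genes in either direction, 10.2% higher and 14.2% lower. Arrays of CX3CR1hi and splenic cells did not overlap for 9 of 9 members and for 74.3% of all genes. Those of CX3CR1int and CX3CR1hi cells did not overlap for 5 of 9 (48.9% of all genes), and those of CX3CR1int and splenic cells for 6 of 9 (68.3%). Without the steady-state splenic array the counts of called members against splenic cells became 5 for CX3CR1hi (29.7% of all genes) and 1, Skil, for CX3CR1int (5.88%). Without the colitis splenic array the CX3CR1int count was 3, namely Skil, Tgfbr1 and Thbs1 (8.33%).

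Colitis itself was compared with steady state within the CX3CR1hi and the splenic arrays, with the population in the fit. No member passed the threshold, and neither did any of the 10673 genes (limma, 0 calls, 0.0% of all genes). At an unadjusted p under 0.05 there were 138 genes and 0 of the 9 members. The largest member differences were -0.40 ± 0.38 for Smad7 (limma, adjusted p = 0.9999; interval -1.31 to 0.51) and 0.25 ± 0.12 for Tgfbr2 (interval -0.04 to 0.53). Condition and the label for sex partly coincide in this comparison. A test of whether the colitis difference was unlike in CX3CR1hi and splenic cells also called 0 of 10673 genes (limma), and its largest member values were -0.80 ± 0.98 for Thbs1 and -0.78 ± 0.79 for Smad7.

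Between single arrays of 1 population there is no replicate check. Pancreatic acinar markers differed within the CX3CR1hi arrays. Their log2 summed level was 11.84 in resident, 9.01 in reconstituted, 8.43 in steady-state F4/80hi and 11.20 in colitis F4/80hi macrophages. What part such RNA has in the differences below was not tested. In F4/80hi macrophages, colitis minus steady state was -0.47 for Smad7, 0.29 for Tgfbr2, -0.19 for Tgfb1 and -0.18 for Thbs1, and no member reached 2-fold, as 1.47% of all genes did, 1.23% higher and 0.243% lower. In splenic monocytes no member was 2-fold apart either (0.708% of all genes, 0.686% higher and 0.0211% lower), and Thbs1 differed most, by 0.37. Reconstituted and resident macrophages lay close for all members: the furthest apart was Tgfbr1 at -0.33, followed by Tgfb1 at 0.19, and again 0 of 9 were 2-fold apart, against 1.76% of all genes, 0.675% higher and 1.09% lower. The steady-state F4/80hi and resident arrays, which share tissue, condition and the CX3CR1hi gate, had 0 of 9 members 2-fold apart, against 3.64% of all genes, 0.279% higher and 3.36% lower.

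The CX3CR1int cells of the inflamed colon, sorted as Ly6Chi and Ly6Clo, were the single arrays of 1 population in which members differed. Smad3 was 3.9-fold lower in Ly6Clo cells (7.61 against 9.57), Thbs1 3.22-fold lower (11.56 against 13.25) and Smad7 2.48-fold higher (9.83 against 8.52). Tgfb1 was lower by less than 2-fold (-0.86), and Tgfbr1 (-0.27), Tgfbr2 (-0.14), Skil (-0.08), Smad2 (0.06) and Smad4 (0.25) differed by little. So 3 of 9 members were 2-fold apart, 1 higher and 2 lower, against 12.0% of 10132 genes, 6.46% higher and 5.51% lower. Only 2.97% of those genes had a larger difference than Smad3 and 4.36% a larger one than Thbs1. By comparison, Smad3 spanned 0.09 over the 4 CX3CR1hi arrays and 0.06 over the splenic arrays. Dendritic cell markers moved with this comparison: the median difference of the 7 genes, Ly6Clo minus Ly6Chi, was 2.19. Their log2 summed level was 12.90 against 10.56, with 8.56 to 9.02 in CX3CR1hi and 9.72 in both splenic arrays. None of the 7 was below the array median on every array. Monocyte markers had a median difference of -2.53, plasma cell markers of -1.75 and pancreatic acinar markers, whose log2 summed level was 7.94 in Ly6Clo and 11.63 in Ly6Chi cells, of -3.65. What part a mixture of cells has in the Smad3, Smad7 and Thbs1 differences was not tested.

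**Figure D3:**
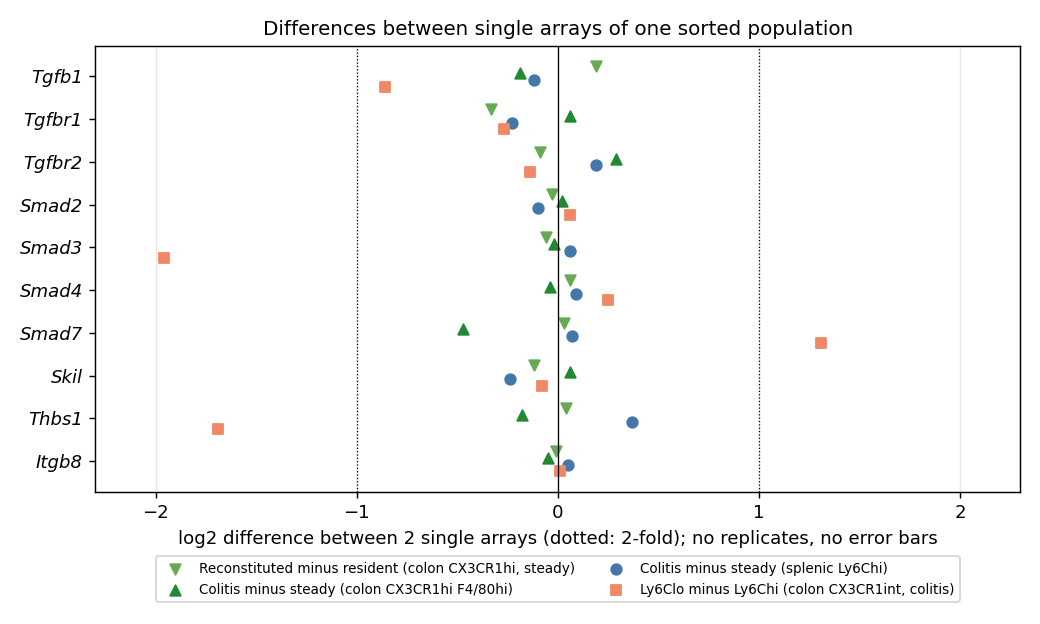
Log2 difference between 2 single arrays (horizontal axis, dotted lines at 2-fold) for the 10 pathway genes in 4 comparisons within a sorted population, with no error bars because each group has 1 array. The comparison of Ly6Clo with Ly6Chi cells passes 2-fold for Smad3 (-1.96), Thbs1 (-1.69) and Smad7 (1.31), and the other 3 comparisons stay within -0.47 and 0.37.

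Set against splenic monocytes in colitis, the Ly6Chi cells of the inflamed colon had more Thbs1 (3.23), Skil (1.56) and Smad7 (1.39) and less Tgfbr1 (-1.02), while Smad3 (0.49) and Tgfb1 (-0.41) were within 2-fold. That makes 4 of 9 members 2-fold apart, 3 higher and 1 lower, against 13.7% of all genes, 9.79% higher and 3.95% lower. The Ly6Clo cells had more Smad7 (2.70), Thbs1 (1.55) and Skil (1.48) and less Smad3 (-1.48), Tgfbr1 (-1.29) and Tgfb1 (-1.27), 6 of 9 members against 22.5% of all genes, 13.2% higher and 9.32% lower. Both comparisons share the colitis splenic array. Against the colitis F4/80hi macrophages, which both again share, 3 of 9 members were apart in Ly6Chi cells (14.4% of all genes, 5.33% higher and 9.07% lower): Tgfbr1 (-2.37), Tgfbr2 (-1.37) and Thbs1 (1.74). In Ly6Clo cells they were Tgfbr1 (-2.64), Tgfbr2 (-1.51), Smad3 (-1.36) and Smad7 (1.22), 4 of 9 against 19.1%, 7.27% higher and 11.8% lower. Both receptor genes were therefore lower than in F4/80hi macrophages in both CX3CR1int arrays, and the Smad3, Smad7 and Thbs1 values differed between those 2 arrays.

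The wider pathway was read from 69 further genes of TGF-beta, activin and bone morphogenetic protein (BMP) signalling, of which 66 were measured and 55 bright enough to test. Between CX3CR1hi and splenic arrays 24 were higher and 10 lower, 61.8% of those tested, against 51.2% of all genes (22.2% higher, 29.0% lower), with a median of 0.52. Between CX3CR1int and CX3CR1hi arrays 6 were higher and 12 lower, and between CX3CR1int and splenic arrays 12 higher and 6 lower, each 32.7%, near the 29.9% and 24.4% of all genes, with medians of -0.13 and 0.18. In colitis against steady state 0 of 55 were called. Among the genes counted, Itgb6, Tgfb3 and Smad6 reached the array median only in CX3CR1hi arrays, and Lrrc32 only in CX3CR1int arrays. They entered the tests through the arrays where they were high, so their calls as higher in those arrays are no support. Pmepa1, Bmpr1a, Bmp2, Bmp4, Ltbp4, Id3 and Cdkn2b were below the array median on both splenic arrays and entered only through colonic arrays. Where called, they are likewise no support for higher levels than in splenic arrays, but the counts include them. Both tested activin and BMP ligand genes are among them. By group, CX3CR1hi arrays had more of 6 and less of 2 of the 10 tested genes of ligands and their activation, more of both tested activin and BMP ligand genes, more of 3 and less of 1 of 9 receptors, more of 6 and less of 5 of 22 SMADs and regulators, and more of 7 and less of 2 of 12 induced genes. The counts against splenic arrays depended on the splenic arrays: for CX3CR1hi they were 16 without the steady-state and 19 without the colitis array, and for CX3CR1int 8 and 10. The share of all genes called fell with them, to 29.7% and 31.4% for CX3CR1hi and to 5.88% and 8.33% for CX3CR1int.

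Pmepa1, a TGF-beta-induced gene whose product limits SMAD activation, showed the largest of these differences. Its level was 10.92, 10.67, 10.88 and 10.81 in resident, reconstituted, steady-state F4/80hi and colitis F4/80hi macrophages, 7.88 and 8.70 in CX3CR1int Ly6Chi and Ly6Clo cells and 5.07 and 5.55 in splenic monocytes at steady state and in colitis. The CX3CR1int arrays thus lay between the others. Both splenic levels were below the array median, so Pmepa1 entered the tests only through colonic arrays. Its calls as higher than splenic arrays are therefore no support for a difference. CX3CR1hi exceeded splenic arrays by 5.51 ± 0.24 (limma, adjusted p = 7.08e-06) and CX3CR1int exceeded splenic arrays by 2.98 ± 0.27 (adjusted p = 0.000606), whereas CX3CR1int lay below CX3CR1hi arrays by -2.53 ± 0.24 (adjusted p = 0.0005). Mmp14, a membrane metalloproteinase that can release latent TGF-beta, had the same order, with mean levels of 10.50, 8.80 and 6.17 in CX3CR1hi, CX3CR1int and splenic arrays. It differed by 4.32 ± 0.36 between CX3CR1hi and splenic, by -1.69 ± 0.36 between CX3CR1int and CX3CR1hi and by 2.63 ± 0.41 between CX3CR1int and splenic arrays, past the threshold each time. Without the steady-state splenic array the differences from splenic cells were 5.26 (adjusted p = 0.000206) and 2.73 (0.00851) for Pmepa1 and 4.00 (0.00167) and 2.3 (0.0472) for Mmp14, in CX3CR1hi and CX3CR1int arrays. Bmpr1a, a type I BMP receptor gene, followed with means of 8.39, 6.72 and 4.69. It too was below the array median on both splenic arrays.

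Itgav showed the same order of populations as Tgfbr1. It encodes the alpha v subunit, which pairs with several beta chains to release TGF-beta, and stood at 11.04, 10.88, 11.32 and 11.09 in resident, reconstituted, steady-state F4/80hi and colitis F4/80hi macrophages, 9.74 and 9.44 in CX3CR1int Ly6Chi and Ly6Clo cells and 10.63 and 10.50 in splenic monocytes. As for Tgfbr1, the CX3CR1int arrays were the lowest: they differed by -1.50 ± 0.16 from CX3CR1hi (limma, adjusted p = 0.000701) and by -0.98 ± 0.18 from splenic arrays (adjusted p = 0.00839). The latter call was lost without the steady-state splenic array (adjusted p = 0.0808). Itgb5, a beta chain of alpha v, was at 11.50 to 11.67 in CX3CR1hi arrays, 10.28 in Ly6Chi and 7.81 in Ly6Clo cells, and the CX3CR1int population was lower than CX3CR1hi by -2.53 ± 0.55 (adjusted p = 0.0137). That difference ranged from -3.77 without the Ly6Chi to -1.3 without the Ly6Clo array. Wwp1, a ubiquitin ligase gene, had means of 10.98, 9.21 and 9.20 in CX3CR1hi, CX3CR1int and splenic arrays, the order of Tgfbr2.

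Some genes were highest in the CX3CR1int cells. Lrrc32 encodes GARP, which anchors latent TGF-beta at the cell surface; it was at 6.30 in Ly6Chi and 7.18 in Ly6Clo cells, and at most 5.59 in the other 6 arrays. Its difference from CX3CR1hi arrays was 1.51 ± 0.29, but its level on those 6 arrays lay below the array median. Lrrc32 thus entered the test only through the arrays where it was high, so its call is no support for a difference. Bambi, a decoy receptor that blocks signalling, was at 6.93 and 7.07 in Ly6Chi and Ly6Clo cells and at most 6.14 elsewhere. It was 1.08 ± 0.15 above CX3CR1hi arrays (limma, adjusted p = 0.00272). Snai1, a transcriptional repressor, was called (1.26 ± 0.38, adjusted p = 0.0412) with 7.82 in the Ly6Chi and 6.27 in the Ly6Clo array, and 1 of 8 fits with an array left out kept the call.

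Zfyve9, Klf10 and Furin were lower in CX3CR1hi than in splenic arrays. Zfyve9 encodes SARA, the anchor that presents SMAD2 and SMAD3 to the receptor; it was at 10.56 and 10.16 in splenic monocytes, between 6.77 and 7.12 in CX3CR1hi arrays, and at 8.38 and 5.35 in CX3CR1int Ly6Chi and Ly6Clo cells. CX3CR1hi arrays differed from splenic arrays by -3.41 ± 0.69 (limma, adjusted p = 0.00453) and CX3CR1int arrays by -3.50 ± 0.79 (adjusted p = 0.0183), the latter between -5.01 and -1.98 with an array left out and past the threshold in 6 of 8 such fits. Without the steady-state splenic array they were -3.21 (adjusted p = 0.0431) and -3.30 (adjusted p = 0.119), and without both colitis arrays the CX3CR1hi call was lost (-3.64, adjusted p = 0.0543). The Ly6Clo array was thus the lowest for Zfyve9, as it was for Smad3, Tgfb1, Tgfbr1, Itgav and Itgb5, among other genes. It was the highest for Smad7, Lrrc32 and Bambi. Klf10, a TGF-beta-induced repressor, differed by -0.90 ± 0.25 in CX3CR1hi (adjusted p = 0.0173) and by -1.02 ± 0.28 in CX3CR1int arrays (adjusted p = 0.0369), and Furin, the protease that cleaves the TGF-beta precursor, by -0.71 ± 0.21 in CX3CR1hi arrays (adjusted p = 0.0224). These calls held in 6, 2 and 6 of 8 fits with an array left out, and none held without the steady-state splenic array (adjusted p = 0.0709, 0.138 and 0.0974). By contrast Gadd45b, a stress- and TGF-beta-induced gene, was higher in both colonic populations than in splenic arrays. CX3CR1int arrays exceeded them by 2.63 ± 0.18 (limma, adjusted p = 0.00027), and by 2.43 (adjusted p = 0.00351) without the steady-state splenic array. CX3CR1hi arrays exceeded them by 2.39 ± 0.16 (limma, adjusted p = 2.61e-05). CX3CR1int and CX3CR1hi arrays differed by 0.24 ± 0.16 (limma, adjusted p = 0.279). Of the other ligands Tgfb2 was below the array median on all 8 arrays (4.35 to 4.51), and Tgfb3 was at 6.18 to 6.79 in CX3CR1hi, 5.21 and 5.70 in CX3CR1int and 4.54 and 4.70 in splenic arrays.

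**Figure D4:**
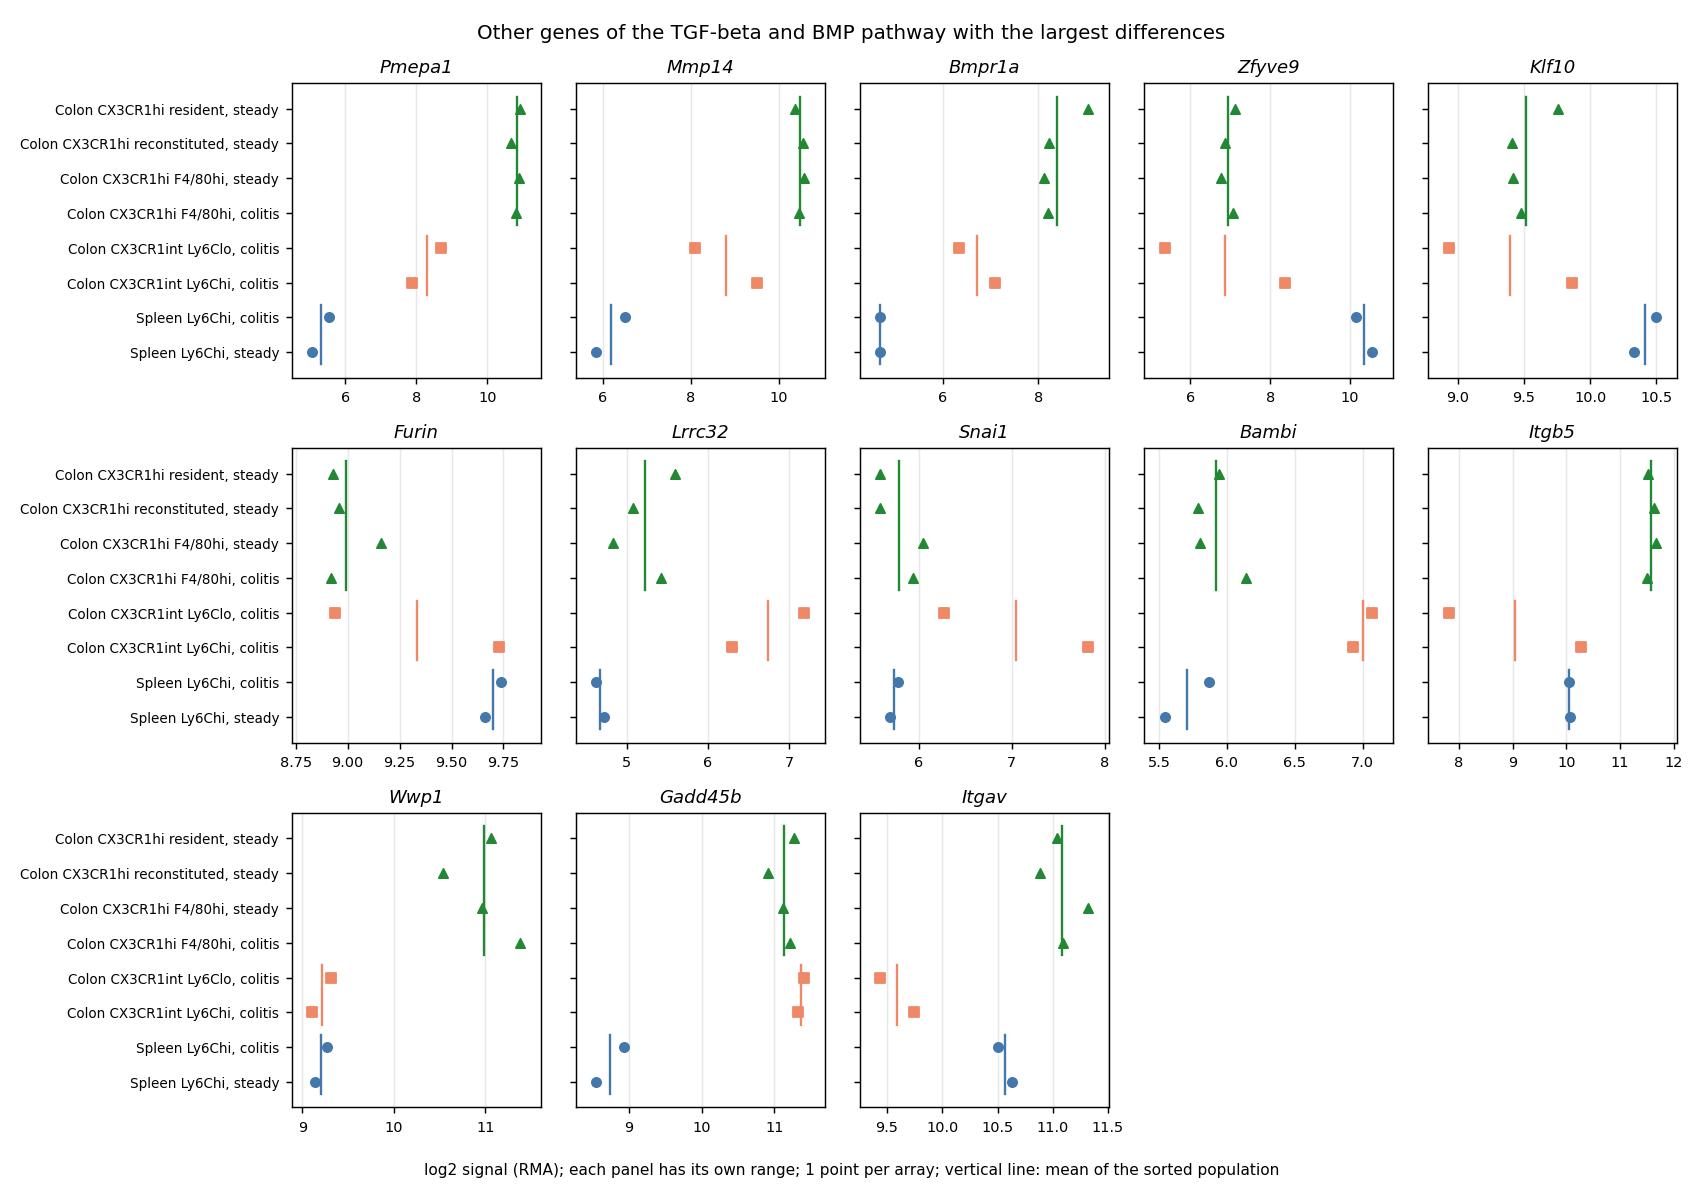
Log2 signal (horizontal axis, a separate range in each panel) of the 13 further pathway genes chosen by the size of their difference, with 1 point per array (triangles CX3CR1hi, squares CX3CR1int, circles splenic) and a line at each population's mean. Pmepa1, Mmp14 and Bmpr1a step down from CX3CR1hi through CX3CR1int to splenic arrays, Lrrc32 and Bambi are highest in CX3CR1int arrays, and Zfyve9 is highest in splenic arrays.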

How the data were processed

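Sorted cells were profiled on Affymetrix arrays, 1 for each of 8 groups. The authors deposited log2 values made with RMA and Partek, per the submitters' processing notes; versions, settings and build are not given in the sources used here. RMA brings the arrays' distributions close, so differences are relative, and the number of arrays limits the precision. The deposited array medians still ran from 5.77 to 5.87. After repeated quantile normalization 50.6% of the genes called in CX3CR1hi minus splenic were higher, against 43.4% in the main fit, so that split depends on scaling.

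Genes were named from probe sets with 1 symbol in the platform annotation (21789 of 35399). The highest-mean probe set was used where a gene had several. Genes at or above the array median on at least 2 arrays (10673) went into a fit over all 8 arrays with limma (version 3.58.1, R version 4.3.3; lmFit, eBayes; 5 residual degrees of freedom, 4 for colitis), with Benjamini-Hochberg adjustment over all of them at 0.05, after the code was tested on simulated data. Single arrays were compared as differences, with no test, where the brighter was at or above its array's median.

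Named were all members, up to 3 wider pathway genes per contrast and direction, and the closest profiles. Other genes were named after their values were seen. Members, lists and motifs were chosen with earlier results of these data known, and the immediate early list, the colitis interaction and the fit without colitis arrays were added. Skil and Thbs1 promoters are not analysed here. No column of the deposited table was left unmapped. Alternatives were other filters, probe set means, centring, quantile normalization, sex in the fit, the contrast's arrays alone, another prior and leaving out each array.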

Additional observations from a re-analysis of the deposited data

How the results depend on the processing

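No paired analysis was made because each group had 1 array. With 1 array left out, the members called ranged from 5 to 8 for CX3CR1hi minus splenic, from 2 to 4 for CX3CR1int minus CX3CR1hi and from 1 to 7 for CX3CR1int minus splenic, and the wider pathway genes called from 16 to 37, from 12 to 18 and from 8 to 23; the colitis counts stayed at 0. In the same fits the share of all genes called ranged from 29.7 to 60.2%, from 22.7 to 34.3% and from 5.88 to 35.2%. With the arrays of the contrast only, CX3CR1int minus splenic called 2 members and 11 wider genes, among 11.1% of all genes. Without both colitis arrays of the contrast, chosen after seeing the data, CX3CR1hi minus splenic called 5 members and 16 wider genes (27.6% of all genes); Tgfbr1, Tgfb1 and Smad4 were lost. The member counts of all other settings stayed within 1.5 times the reported ones. Signs changed for values that were not called: for CX3CR1hi minus splenic, Smad3 to 0.0112 after quantile normalization; for CX3CR1int minus CX3CR1hi, Smad7 to -0.0020 and Tgfb1 to -0.0022 after centring and Smad7 to -0.0082 after quantile normalization; for CX3CR1int minus splenic, Tgfbr2 to 0.0457 after quantile normalization. For colitis they changed with sex in the fit for Smad2 (0.0095), Smad3 (-0.0133), Smad4 (0.0351), Tgfbr1 (-0.1032) and Thbs1 (0.0807), and after centring for Smad3 (-0.0118). With 1 array left out, ranges that crossed 0 were, for CX3CR1int minus CX3CR1hi, -1.35 to 0.62 for Smad3, -0.62 to 0.69 for Smad7, -0.40 to 0.46 for Tgfb1 and -0.27 to 1.41 for Thbs1. For CX3CR1int minus splenic they were -1.45 to 0.52 for Smad3, -0.21 to 0.0385 for Smad4 and -0.12 to 0.0719 for Tgfbr2. For colitis they were -0.24 to 0.0870 for Skil, -0.13 to 0.0893 for Smad4, -0.71 to 0.0693 for Smad7, -0.23 to 0.25 for Tgfbr1 and -0.43 to 0.37 for Thbs1. Beyond the arrays named in the report, the cause was not tested.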

Other observations

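For the members whose range over the 8 arrays was at least 2, the genes with the closest centred profiles among 10672 others are given by their root mean square log2 difference over the 8 arrays, as a description without a test. For Tgfbr1 these were Tnfsf13b (0.17), which encodes the B cell survival factor BAFF, Timp2 (0.20), a metalloproteinase inhibitor gene, and Stard8 (0.20). Tnfsf13b stood at 8.97 to 9.80 in CX3CR1hi, 8.36 and 8.15 in splenic and 7.15 and 7.27 in CX3CR1int arrays. For Smad7 they were Carmil1 (0.16), Ccna2 (0.17), which encodes the S-phase cyclin A2, and Net1 (0.20). Ccna2 was at 10.10 in Ly6Clo, 8.32 in Ly6Chi and 7.32 and 7.38 in splenic arrays. For Thbs1 they were Slc39a14 (0.20), a zinc and iron transporter gene, Il1rn (0.38), the interleukin 1 receptor antagonist gene, and Hilpda (0.38). Slc39a14 reached 8.96 in Ly6Chi cells and was at 5.09 and 5.16 in splenic monocytes.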
